A study of Homo sapiens with 30 samples.

Results

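HCC1419, an established human breast cancer cell line, was followed over 24 h of exposure to recombinant human BMP4. The time course was made of 6 two-colour oligonucleotide arrays out of 30 in the whole study, 1 each at 30 min, 1, 3, 6, 12 and 24 h. They were chosen by the cell line named in their labels. Of 41000 probes, 24341 were kept, since at least 1 channel stood well above background on each of the 6 arrays and a ratio could be had on all of them. On every array the vehicle-treated cells of the same time point were labelled with Cy3 and the BMP4-treated cells with Cy5. Untreated cells were not among these arrays. The other 24 arrays covered ZR-75-30, HCC1954, SK-BR-3 and MDA-MB-361 at the same 6 time points with the same dyes. Per the labels, replicate cultures were pooled before labelling, so each array stood for 1 pool and no time point had a replicate. The dyes were never swapped, so a dye effect of a probe and its response to BMP4 cannot be told apart within 1 ratio.

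BMP4 is a secreted growth factor of the TGF-beta superfamily. It binds type I and type II serine/threonine kinase receptors, which phosphorylate SMAD1, SMAD5 and SMAD9. These join SMAD4 in the nucleus and act on target genes, of which the ID genes are the best known. The pathway also induces its own inhibitors, among them SMAD6, SMAD7 and BAMBI. In breast cells BMP4 is known for slowing proliferation and for effects on migration.

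Ratios are given as log2 of BMP4 over vehicle, so that 1 is 2-fold higher and -1 is 2-fold lower. A probe was called held when it stood at 2-fold or more in 1 direction on 2 or more consecutive time points, and this count carries no test. The late difference is the mean of the ratios at 3, 6, 12 and 24 h minus the ratio at 30 min. It was tested with limma, with the single 30 min array assumed to vary like the 4 late ones.

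The arrays at 30 min, 1, 3 and 6 h lay on 1 slide and those at 12 and 24 h on another, and no other cell line shared these slides, so that slide and line cannot be told apart. Probes at or past 2-fold above vehicle went from 1 at 30 min to 23, 26, 37, 53 and 76 at the later time points, and below vehicle from 2 to 161, 257, 38, 57 and 8. The ratios of different time points correlated across probes with Pearson's r of 0.33 to 0.83. Replicate spots of a probe on 1 array differed by a median SD of 0.05 to 0.11. Probes were divided by brightness into 3 groups of equal number. Before loess, the median ratio of the bright group was -0.92 at 30 min and 1.11 at 24 h, against -0.10 to 0.19 on the other 4 arrays, and 30 min is the base of every late difference. On these 2 arrays dim probes also had narrower ratios. The ratios of the dim group had an SD of 0.054 at 30 min and 0.14 at 24 h, against 0.19 to 0.21 on the other arrays. With the processed signals of the scanner software these values were 0.29 and 0.35, against 0.31 to 0.36. The value from processed signals is added below where a dim gene differed much between the 2. All 9 luminal epithelial markers on the list (KRT8, KRT18, KRT19, EPCAM, CDH1, MUC1, GATA3, FOXA1 and ERBB2) were measured on all 6 arrays. Of 6 basal markers 2 were measured, KRT14 and CDH3, while KRT5, KRT17, TP63 and ACTA2 were not well above background on any of them. Of the fibroblast, endothelial and leukocyte markers, 1 of 7, 1 of 5 and 3 of 6 were measured.

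The ID genes, which encode helix-loop-helix proteins that keep basic helix-loop-helix transcription factors from binding DNA, were all held above vehicle in HCC1419, from 1 h on. ID1 stood at 0.51, 1.81, 1.88, 1.77, 1.91 and 1.83 at the 6 time points in order. It was thus close to its plateau at 1 h, and the 5 later values lay within 3.41- to 3.77-fold of vehicle. ID4 stood at 0.13, 1.30, 1.60, 1.44, 1.49 and 1.37, a late difference of 1.34 ± 0.14 (SE). ID3 stood at 0.05, 1.12, 1.13, 1.10, 1.20 and 1.14, flatter and lower than ID1. ID2 had its highest ratio at 1 h. It was at 0.09, 1.92, 1.59, 1.36, 1.39 and 1.08, and its other probe gave -0.16, 1.21, 1.12, 1.06, 0.93 and 0.81. Both ID2 probes were higher at 1 h than at any later time point. No ID ratio from 1 h on overlapped the 30 min value of the same probe.

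In the channels themselves, the vehicle level of ID1 on the log2 scale was 16.02 at 30 min and 15.09 to 15.37 later, and the BMP4 level was 16.54 at 30 min and 16.97 to 17.20 later. The late difference of ID1 was 1.33 ± 0.13 (SE), with the lowest adjusted p of all probes in limma, 0.0859, shared with ID4. ID3 followed at an adjusted p of 0.108. Of all 24341 probes 0 passed an adjusted p of 0.05 in limma (0.0%), and 733 had an unadjusted p under 0.05, 610 of them higher (2.51%) and 123 lower (0.505%). When the spread was shared by all 30 arrays, ID4 (adjusted p = 0.0190) and ID3 (0.0393) were among 5 probes of 23934 called (0.0209%). That shared spread takes in the other lines, so these p-values do not measure the spread within HCC1419 alone. Within the slide that held 30 min, 3 and 6 h the differences were 1.31 for ID1, 1.39 for ID4 and 1.07 for ID3. The size depended on the base and the scaling: with 30 min and 1 h as the base the late differences of ID1, ID2, ID3 and ID4 were 0.69, 0.35, 0.55 and 0.76, and with 1 factor per array 2.82, 2.54, 2.32 and 2.58.

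**Figure D1:**
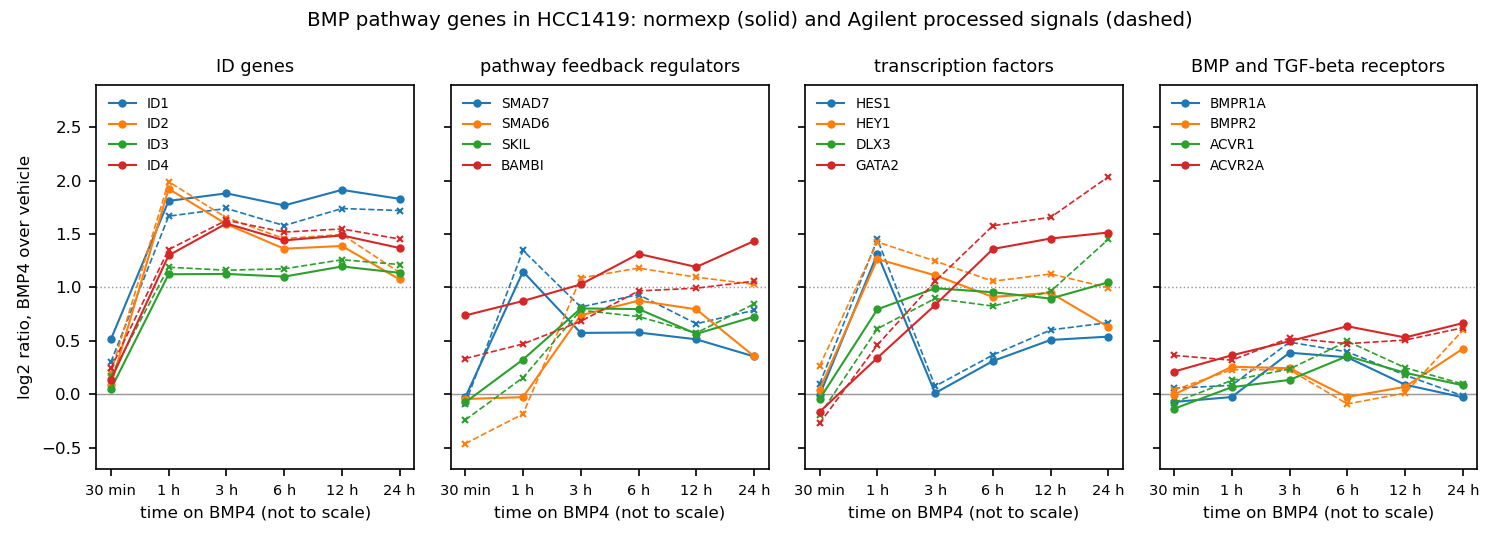
Log2 ratio of BMP4 over vehicle (y axis) against time on BMP4 (x axis, time points evenly spaced) in HCC1419. There is 1 panel each for the ID genes, feedback regulators, transcription factors and receptors, with 1 array per point and no error bars. Solid lines are the reported ratios and dashed lines those from processed signals. ID1 sits between 1.77 and 1.91 from 1 h on, while SMAD7 and HES1 peak at 1 h at 1.15 and 1.32.

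The 250 bases before the annotated start of each of the 4 ID genes are shown because all 4 genes were held above vehicle. They come from RefSeq on GRCh38.p14, at chr20:31605039-31605288 (+) for ID1, chr2:8681806-8682055 (+) for ID2, chr1:23559502-23559751 (-) for ID3 and chr6:19837120-19837369 (+) for ID4. Capitals mark matches, on either strand, to the palindrome GGCGCC, a motif of BMP SMADs, and to GTCTG, the SMAD box, which reads CAGAC on the other strand. They also mark the TATA box TATAAA, which reads TTTATA on the other strand.
ID1: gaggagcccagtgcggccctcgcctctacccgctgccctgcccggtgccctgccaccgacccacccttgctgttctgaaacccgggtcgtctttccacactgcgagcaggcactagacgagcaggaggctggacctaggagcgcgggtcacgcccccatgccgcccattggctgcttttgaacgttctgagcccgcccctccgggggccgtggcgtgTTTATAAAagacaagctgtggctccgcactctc
ID2: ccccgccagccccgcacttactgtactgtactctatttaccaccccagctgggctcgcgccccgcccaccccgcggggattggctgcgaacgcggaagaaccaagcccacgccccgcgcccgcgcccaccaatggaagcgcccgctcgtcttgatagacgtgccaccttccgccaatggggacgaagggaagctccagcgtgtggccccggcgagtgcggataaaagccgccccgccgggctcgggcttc
ID3: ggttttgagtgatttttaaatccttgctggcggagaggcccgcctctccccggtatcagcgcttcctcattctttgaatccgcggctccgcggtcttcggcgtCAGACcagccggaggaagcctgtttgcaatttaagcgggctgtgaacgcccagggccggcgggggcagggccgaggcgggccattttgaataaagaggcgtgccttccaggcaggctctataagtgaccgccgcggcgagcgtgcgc
ID4: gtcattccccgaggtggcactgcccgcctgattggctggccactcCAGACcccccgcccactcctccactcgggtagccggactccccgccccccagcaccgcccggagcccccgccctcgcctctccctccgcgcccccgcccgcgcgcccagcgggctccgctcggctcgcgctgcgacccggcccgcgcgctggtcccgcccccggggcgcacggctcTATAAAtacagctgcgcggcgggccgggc
ID1 holds TATAAA on both strands in 1 overlapping stretch, ID4 holds TATAAA and CAGAC, ID3 holds CAGAC, and ID2 has no match in this window. Of 35116 promoter windows in the table, 16.4% hold GGCGCC, 38.0% hold GTCTG and 10.7% hold TATAAA. Of the 43 genes held above vehicle, 32 have a window of their own, and 7, 10 and 3 of these hold the 3 motifs (21.9%, 31.2% and 9.38%). These matches are descriptions of the windows and no binding was measured.

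Of the genes of the SMAD proteins that carry the signal and of the receptors that start it, those measured stayed within 2-fold of vehicle. Of 6 receptor and common SMAD genes 5 were measured, none was held, and their late differences ran from -0.08 (SMAD5) to 0.26 (SMAD3), with a median of 0.12. SMAD1, which carries BMP signals, was at -0.03, -0.05, 0.00, 0.15, 0.19 and 0.33. Of 13 receptors 8 were measured with a median late difference of 0.16, and none was held. The type I receptor BMPR1A stood between -0.07 and 0.39 and the type II receptor BMPR2 between -0.02 and 0.43. The highest was ACVR2A, a type II receptor, at 0.21, 0.36, 0.50, 0.64, 0.53 and 0.67, with a late difference of 0.37 ± 0.13 (SE). Over all probes kept the median late difference was 0.04. BMPR1B and TGFBR2 were not well above background on any of the 6 HCC1419 arrays.

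Feedback regulators came in 3 time patterns. SMAD7, which blocks receptor-bound SMADs, was at -0.03, 1.15, 0.57, 0.58, 0.51 and 0.35, highest at 1 h. Processed signals gave SMAD7 1.35 at 1 h and then 0.82, 0.93, 0.66 and 0.79, a smaller drop by 24 h. SMAD6, the inhibitor that acts mainly on BMP receptors, was at -0.04 and -0.03 up to 1 h and then at 0.74, 0.88, 0.80 and 0.36. It is a dim probe, and processed signals gave 1.09, 1.18, 1.10 and 1.03 for the same 4 time points, past the 2-fold limit. SKIL, a co-repressor of SMADs, stood at -0.08, 0.33, 0.80, 0.80, 0.57 and 0.73. BAMBI, a pseudoreceptor without a kinase domain, was already at 0.74 at 30 min and 0.87 at 1 h, and at 1.03, 1.31, 1.19 and 1.43 later, so its late difference was only 0.50 ± 0.17 (SE). Of 12 genes on this list 11 were measured and 1 was held. All 4 of the genes just described had an unadjusted p under 0.05 in limma with 0 called, against 2.51% of all probes in that direction, and the median over the list was 0.23.

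Among secreted modulators, CHRD, which encodes the BMP-binding antagonist chordin, was held at 0.05, 0.53, 0.92, 1.37, 1.42 and 1.10. Its other probe was not held. RGMA, a BMP co-receptor, reached 1.00 at 1 h and was between -0.06 and 0.14 from 3 h on. The other 5 measured modulators had late differences between -0.05 and 0.12. Of 18 ligand genes 4 were measured and none was above vehicle by 2-fold at any time point. BMP7 stood between -0.21 and 0.11, and the probe for BMP4 itself was not measured.

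Transcription factors on the BMP list showed an early, a transient and a late pattern. Of 26 genes 19 were measured, 3 were held above vehicle, 10 had an unadjusted p under 0.05 and a higher late value, and none a lower one, with a median of 0.35. Over all probes 0.193% were held above vehicle and 2.51% were higher at that p. JUNB, an AP-1 subunit, was at 0.46, 1.52, 1.13, 0.99, 1.29 and 1.35 on its brightest probe, while its dimmer probe ranged from -0.21 to 0.60 and was not held. HEY1, a basic helix-loop-helix repressor, was at 0.04, 1.27, 1.11, 0.91, 0.95 and 0.63. HES1, a repressor of the same class, was transient, with -0.01 at 30 min, 1.32 at 1 h and 0.01 at 3 h, then 0.31 to 0.54. GATA2 was late, at -0.16, 0.34, 0.84, 1.36, 1.46 and 1.51, and processed signals gave 2.04 at 24 h. Another GATA2 probe, at 0.97, 1.32 and 0.92 at 6, 12 and 24 h, was not held, though it was with processed signals. The homeobox gene DLX3 stayed close to the 2-fold limit from 3 h on, at -0.04, 0.80, 0.99, 0.96, 0.90 and 1.05, with a late difference of 1.02 ± 0.13 (SE) and an adjusted p of 0.141 in limma. KLF4, GATA6 and DLX2 had late differences of 0.75, 0.60 and 0.65.

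In all, 47 probes were held above vehicle (0.193%), of which 45 carried a gene name and stood for 43 genes. The run of 2-fold values began at 1 h in 8 probes, at 3 h in 7, at 6 h in 16 and at 12 h in 15. The remaining probe, for the ribosomal protein gene RPS10, was already at 1.23 at 30 min. The late values of 44 of the 47 all lay above 30 min, where 25.6% of all probes did so, and 9.14% lay wholly below. These probes were chosen by the same ratios, so the counts describe them and test nothing. At the edge, RPS10, LRATD2 and HMOX1 were just inside the limit, all at 1.01, and SAMD11 and a further LDLRAD4 probe just outside, both at 0.99. SAMD11 and that LDLRAD4 probe were held with processed signals. Of the 47 probes 42 were also held with processed signals, and RPS10, BAMBI, LRATD2, TUBA1C and the transcript BC026998 were not. Processed signals held 93 probes above vehicle in all and the authors' ratios 82, and 28 were held without the 12 h array.

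The early group also held GIPR, the receptor of an incretin hormone, at 0.56, 1.36, 1.41, 1.15, 0.95 and 0.77, although its probes disagreed. Another 12 probes were at 2-fold or more above vehicle at 1 h and were not held. Of these, 9 had names, for OVOL1 (1.46 at 1 h), HES1 with 3 probes, BCOR, KLF10, SMAD7, GADD45B and HDAC4 (1.02). KLF10, a TGF-beta inducible repressor, was at 1.19.

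The group that began at 3 h was led by CDH10 and GPER1. CDH10, a cadherin, was at 0.12, 0.33, 1.58, 1.99, 1.64 and 1.55, with a late difference of 1.57 ± 0.18 (SE) and an adjusted p of 0.108 in limma, or 0.0140 with the spread of all 30 arrays. GPER1, a membrane oestrogen receptor, was at 0.09, 0.41, 1.36, 1.93, 1.88 and 1.39. Both peaked at 6 h. MAP3K5, a kinase upstream of the stress kinases p38 and JNK, was at 0.10, 0.17, 1.34, 1.44, 1.30 and 1.11, with an adjusted p of 0.141. MTCL1, a microtubule-linking protein, was highest at 3 h at 1.67 and stood at 0.72 at 24 h. NEURL3, LDLRAD4 and BAMBI, the last given above, were also in the group. LDLRAD4, a known inhibitor of TGF-beta signalling, was at 1.22 at 3 h and 0.49 at 24 h.

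The group that began at 6 h held the largest reported ratios of the time course. UCA1, a long non-coding RNA, was at 0.15, 0.47, 0.94, 1.74, 2.51 and 2.82, which is 7.05-fold above vehicle at 24 h. Each value was higher than the one before it, and none of the other held probes reached this level in the reported ratios. Processed signals raised the 24 h values of CCK and TCIM past it, as given below. Its late difference was 1.85 ± 0.58 (SE), or 1.19 within the slide that held 30 min, 3 and 6 h. CXCL14, a chemokine, was at -0.07, 0.16, 0.49, 1.38, 1.87 and 1.95. IGFBP3, a binding protein of insulin-like growth factors, was at -0.09, 0.09, 0.62, 1.25, 1.42 and 1.72. Like UCA1, both were higher at each time point from 3 h on than at the time point before it. Another IGFBP3 probe, at 0.98 at 12 h and 0.83 at 24 h, was not held, though it was with processed signals. EDN2, an endothelin ligand, had a first peak of 1.19 at 1 h, dropped to 0.75 at 3 h and was at 1.02, 1.43 and 1.89 later.

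CDKN1A, the cyclin-dependent kinase inhibitor induced in growth arrest, was in the same group at -0.01, 0.37, 0.86, 1.10, 1.17 and 1.23. Another CDKN1A probe, at 0.86 at 12 h and 0.39 at 24 h, was not held, though it was with processed signals. DUSP2, a nuclear phosphatase of MAP kinases, was at 0.01, 0.82, 0.75, 1.5, 1.80 and 0.77. TCIM was at -0.01, 0.07, 0.85, 1.29, 1.61 and 1.22. The lower 24 h values of these last 2 genes were not seen with processed signals, which gave 1.98 for DUSP2 and 2.85 for TCIM. Another probe of each, at 1.24 at 12 h for both genes, was not held, though it was with processed signals. TCIM and GATA2 both had an adjusted p of 0.0140 with the spread of all 30 arrays, and 0.657 and 0.389 from HCC1419 alone. The spread of all 30 arrays takes in the other lines and is not that within HCC1419. Over the 47 held probes, 27 had a lower value at 24 h than at 12 h, and 18 with processed signals. SEMA3B, a secreted semaphorin, and KLB, a co-receptor of fibroblast growth factors, were at 1.09 and 0.45 at 24 h. Another KLB probe was held with processed signals but not with the reported ratios.

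The last group began at 12 h. CCK, a peptide hormone gene, was at 0.16, 0.46, 0.33, 0.65, 1.19 and 1.83, and processed signals gave 2.89 at 24 h. RFTN1, a lipid raft protein, was at -0.01, 0.14, 0.21, 0.90, 1.41 and 1.57. HSD11B2, which inactivates cortisol, was at -0.06, 0.15, 0.74, 0.96, 1.47 and 1.29. PSCA, a cell surface antigen, was at 1.28 and 1.56 at 12 and 24 h, HMOX1, the inducible haem oxygenase, at 1.01 and 1.48, and S100A2 at 1.39 and 1.13. The keratins KRT9 and KRT80 were at 1.22 and 1.15 at 24 h. TMEM97, an endoplasmic reticulum protein linked to cholesterol handling, was held on 2 probes at 1.36 and 1.18 at 24 h. TUBA1C stood at 0.92 already at 30 min and its probes disagreed.

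**Figure D2:**
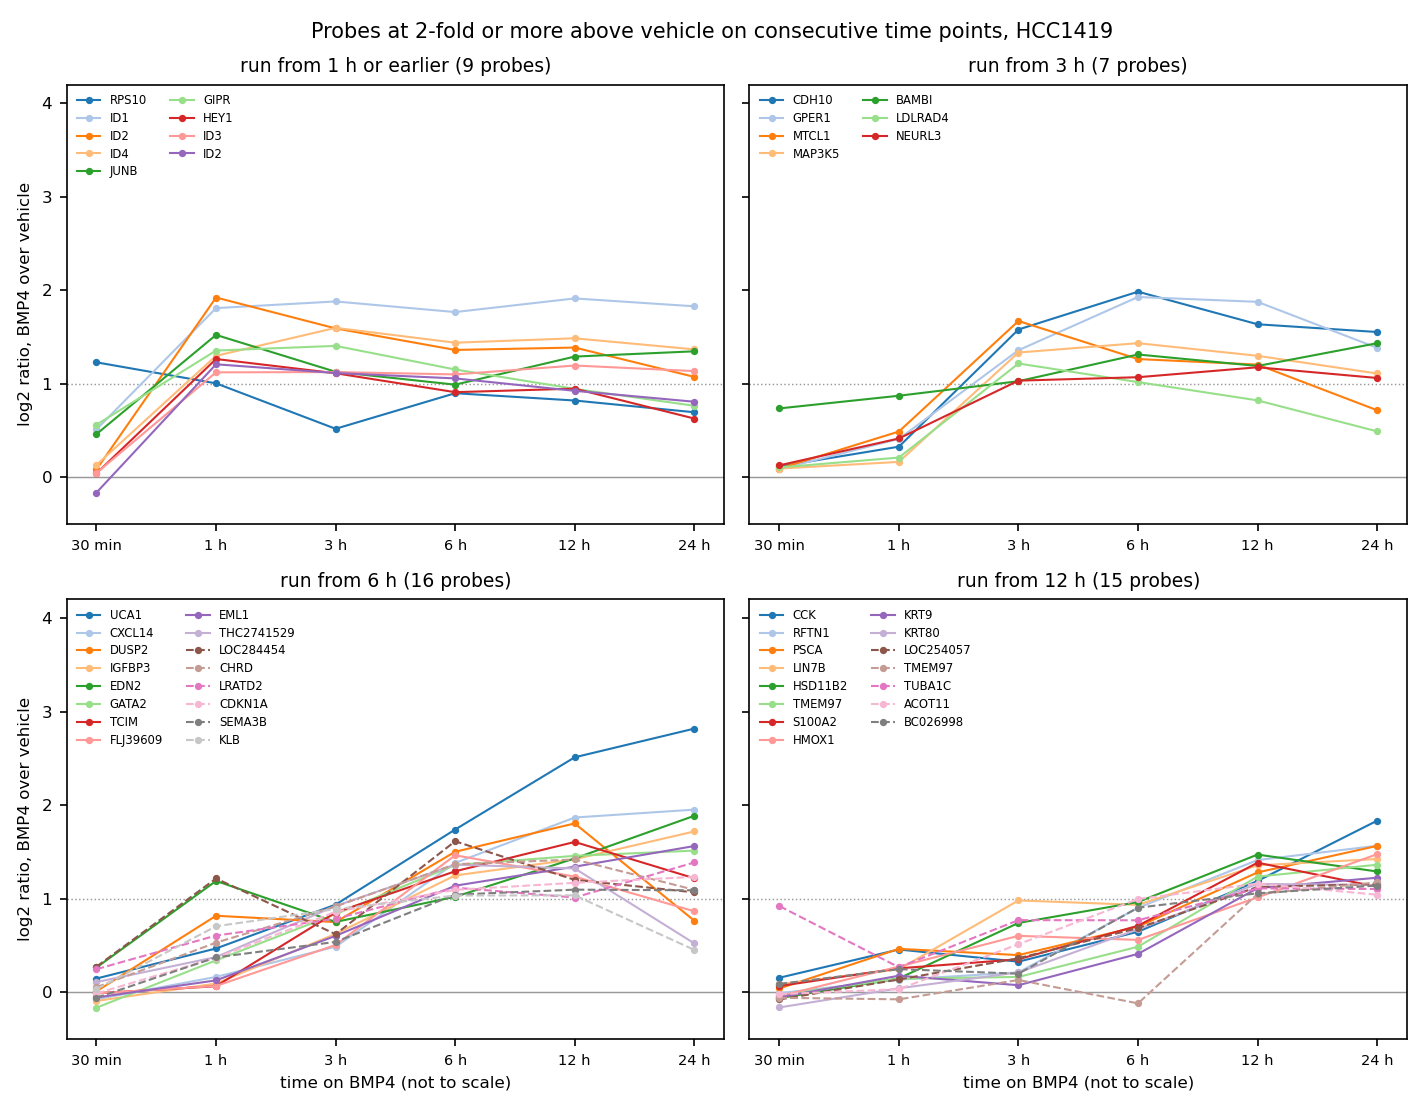
Log2 ratio of BMP4 over vehicle (y axis) against time on BMP4 (x axis, evenly spaced) for the probes held at 2-fold or more above vehicle in HCC1419, in panels by the time at which the run began, 1 array per point and no error bars. UCA1 reaches 2.82 at 24 h. From 1 h on ID1 and ID3 are nearly flat, while ID2 is highest at 1 h and lower later.

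The 10 largest late differences upward were those of UCA1, CDH10, GPER1, CXCL14, GATA2, SAMD11, IGFBP3, ID4, ID1 and ID2, from 1.85 down to 1.27. None was called, with adjusted p from 0.0859 to 0.999 in limma, and all 10 had an unadjusted p under 0.05. Within the slide of 30 min, 3 and 6 h these 10 differences were 1.01 to 1.67. SAMD11 was not held, since it passed 2-fold only at 6 h, with -0.37, -0.13, 0.87, 1.33, 0.99 and 0.82. With processed signals SAMD11 was held, at 1.02, 1.46 and 1.13 at 3, 6 and 12 h. Over all probes 30 were at 2-fold or more upward and 2 downward, NANOS1 and a transcript with no gene symbol. The split of unadjusted calls differed with the processing. It was 83.2% upward here, 84.1% with a normexp offset of 10, 49.2% with processed signals and 52.5% in the authors' own ratios. What made the difference was not tested. When each array was scaled by 1 factor instead of loess, the median of all probes was 0.75, and 5060 of 5061 unadjusted calls were upward.

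Below vehicle, 157 probes were held (0.645%), of which 93 named a gene each. At the edge, SYNPO was just inside the limit and HOXA3 just outside, both at -1.0. The lowest were CRTC1, PRR7, NPAS3, SPPL2B, MEX3D, CACNA1I, ZNF467, C19orf73, CKB and CASKIN1. CRTC1, a coactivator of CREB, was at -0.90, -1.70, -2.09, -0.62, -1.34 and -0.71. CKB, the brain-type creatine kinase, was at -0.68, -1.37, -1.98, -0.94, -1.13 and -0.42. These probes were chosen by the same ratios, so that a shared shape is partly built in. As a description, 142 of the 157 correlated across the 6 arrays at 0.9 or more with their own median profile of -0.61, -1.21, -1.72, -0.78, -0.91 and -0.32. In 148 the run began at 1 h, and 145 were already 1.25-fold or more below vehicle at 30 min. Their late difference had a median of -0.33. In 12 of them all late values lay below 30 min, and 4 had an unadjusted p under 0.05 in limma with 0 called.

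The probes held below vehicle were bright, with a median of 13.7 on the log2 scale against 9.60 for all probes, and 95 of the 157 were among the 2434 brightest of all kept. Loess sets the median ratio at each brightness near 0. The held probes included genes of developmental transcription factors such as SOX3, SOX17, NEUROG1, NEUROG3, PHOX2A, LBX1, EN2 and POU3F3, a set singled out after the values were seen. SOX17 was at -0.56, -1.14, -1.88, -0.84, -1.11 and -0.28. Of the gene lists, 10 SOX genes were measured and these 2 were held, where 0.645% of all probes were. BBC3 and HRK, both activators of the mitochondrial death pathway, WNT6, HES7 and the ligand BMP8A, at -0.81, -1.20, -1.53, -0.65, -1.20 and -0.29, followed the same profile. In MDA-MB-361 125 of the 157 were held above vehicle (1.01% of all 24341 probes). The mean ratio over 6 time points was below 0 for 3 of the 157 in MDA-MB-361, 5 in ZR-75-30, 139 in HCC1954 and 156 in SK-BR-3, where 49.5%, 53.1%, 49.5% and 50.2% of all probes were. The late difference was below 0 for 5, 3, 132 and 3 in the same order, with medians of 0.74, 1.20, -0.17 and 1.16. Without the 1 h array 31 probes were held below vehicle, and without the 3 h array 27.

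A few genes had a profile of their own. NANOS1, an RNA-binding protein, was at 0.14, 0.31, -0.19, -1.0, -1.0 and -1.39. ALDH1A3, which makes retinoic acid, was at 0.11, 0.29, 0.37, 0.03, -1.12 and -1.02, below vehicle only from 12 h. KLK3, the prostate-specific antigen gene, was at -0.01, -0.80, -1.07, -1.17, -0.37 and -0.21, lowest at 6 h. Among the 10 largest late differences downward were those of NANOS1 (-1.04), AHNAK (-0.88), LOC145694, NIBAN1, KLK3, RPS2, GCN1, LOC728688 and SYBU (-0.61). None of the 10 was called, and 7 had an unadjusted p under 0.05. In 5 of them the 30 min value was 1.25-fold or more above vehicle, as in AHNAK at 0.76 and RPS2 at 0.94, and the other probes of these 2 genes disagreed. With 1 factor per array NANOS1, AHNAK, NIBAN1, KLK3, RPS2, GCN1 and SYBU were above 0, and with 30 min and 1 h as the base LOC728688 was.

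**Figure D3:**
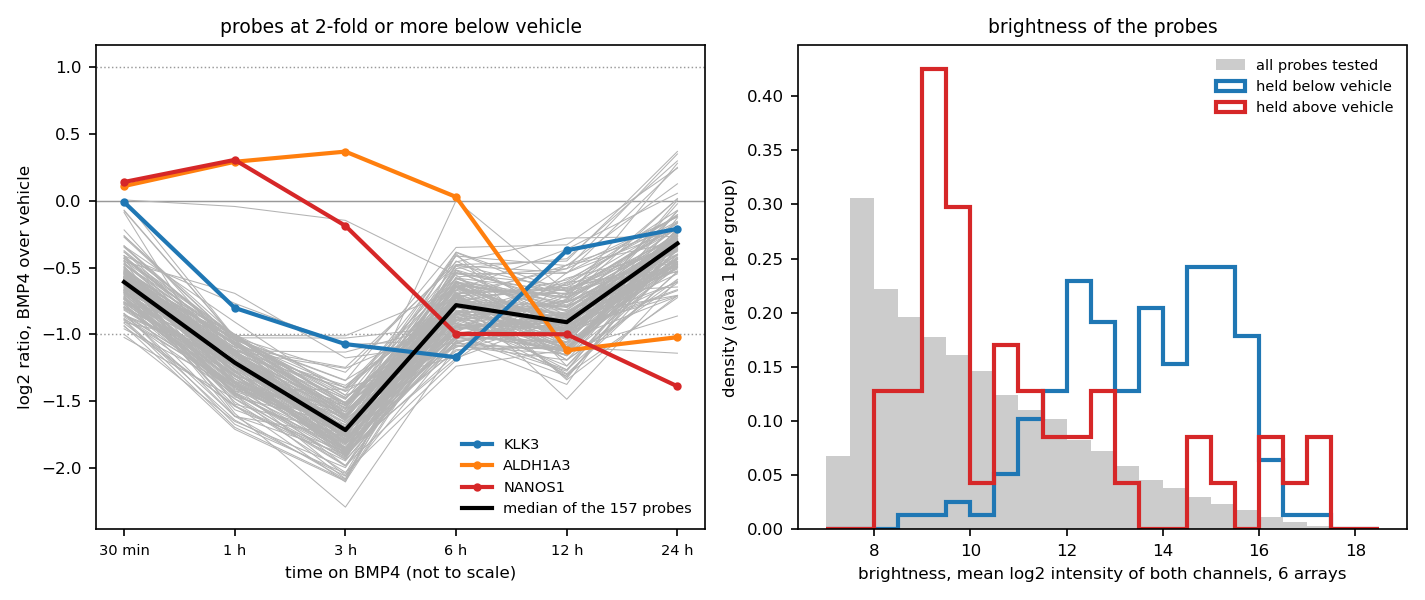
Left, log2 ratio of BMP4 over vehicle (y axis) against time on BMP4 (x axis) for the 157 probes held at 2-fold or more below vehicle in HCC1419, with their median in black, lowest at 3 h at -1.72. Right, density (y axis, area 1 per group) of probe brightness (x axis, log2), where the probes held below vehicle have a median of 13.7 and all probes of 9.60.

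The 8 BMP and TGF-beta lists held 66 measured genes, of which 9 were held above vehicle and 1 below, with 21 at an unadjusted p under 0.05 upward and 0 downward in limma, and 0 called. Among them, the list of TGF-beta type targets, such as FN1 and TGFBI, had 8 of 11 genes measured, none held and none at an unadjusted p under 0.05, with a median of 0.13. Outside these lists, 20 lists of other pathways held 242 measured genes, of which 5 were held above vehicle, 6 below, 16 had an unadjusted p under 0.05 upward and 6 downward. Over all 24341 probes the same shares were 0.193% held above, 0.645% held below, 2.51% upward and 0.505% downward. The medians of the 20 lists ran from -0.15 to 0.12. The 5 held genes of the other lists were DUSP2, MAP3K5, GPER1, CDKN1A and EDN2. All lists were chosen with earlier results of these data known, and genes are set beside probes here. The counts therefore describe the lists and test nothing. Cell cycle genes stood near 0 as groups. All 25 mitosis genes and 20 of 21 DNA replication genes were measured, with medians of 0.05 and 0.06, none held and none at an unadjusted p under 0.05. In the list of cyclins and inhibitors CCND1, cyclin D1, was at -0.32, -0.54, -0.07, 0.12, 0.37 and 0.66, with an SE of 0.24 on a late difference of 0.59. The EGF family ligand AREG was at -0.01, 0.05, 0.37, 0.70, 0.83 and 0.90. Of the WNT pathway, the antagonist DKK1 had a late difference of 0.75 and the nuclear factor LEF1 of -0.55. The pro-apoptotic BMF had 0.54, and the stress gene GADD45A 0.64. The adhesion and mesenchymal transition list had 9 of 14 genes measured, a median of 0.03 and no held gene.

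**Figure D4:**
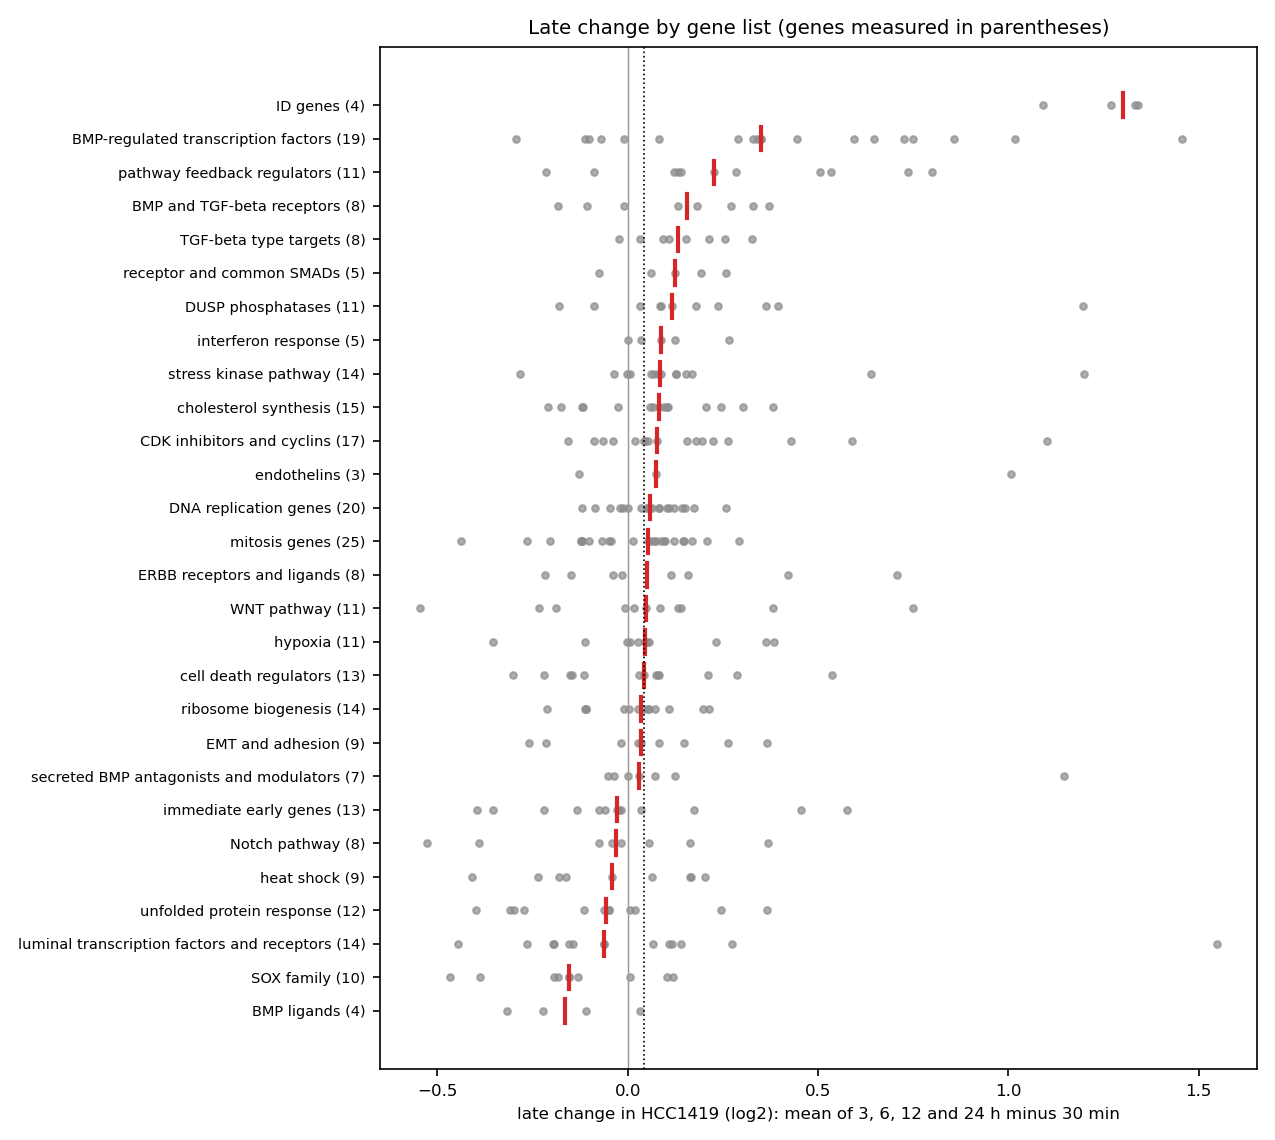
Late difference in HCC1419 (x axis, log2, mean of 3, 6, 12 and 24 h minus 30 min) of each measured gene (grey points, brightest probe) by gene list (y axis, number of measured genes in parentheses), with the list median in red, 0 as a solid line and the median of all probes, 0.04, as a dotted line. The ID genes have a median of 1.30, and the transcription factor list one of 0.35.

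The other 4 lines were not used to choose the probes held above vehicle in HCC1419. In HCC1954 4 of the 47 were held above vehicle, where 0.0329% of the same 24341 probes were. The counts were 9 of 47 against 0.563% in ZR-75-30, 6 against 0.123% in SK-BR-3 and 19 against 1.01% in MDA-MB-361. The 4 in HCC1954 were ID1, ID3 and both ID2 probes, and the 6 in SK-BR-3 were ID1, ID2, ID4, JUNB, GIPR and GPER1. The 9 in ZR-75-30 included UCA1, MAP3K5, DUSP2, EDN2 and HEY1. The 19 in MDA-MB-361 included all ID probes, CDH10, CXCL14, IGFBP3, GATA2, CHRD and CDKN1A. None of the 47 was held below vehicle in any of these lines. The late difference was positive in 37, 43, 34 and 38 of the 47 in the order of lines just given, where 51.6%, 53.9%, 53.7% and 48.9% of all probes were positive. It was positive in all 4 lines for 24 probes, and 25 were held in none of them.

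The 2 probes held in all 5 lines were for ID1 and ID2. ID1 had late differences of 1.25 in HCC1954, 0.60 in ZR-75-30, 0.77 in SK-BR-3 and 1.14 in MDA-MB-361, beside 1.33 in HCC1419. GPER1 was positive in all 4 as well, at 0.42 in HCC1954, 0.86 in ZR-75-30, 1.44 in SK-BR-3 and 1.74 in MDA-MB-361. CDH10 was high in MDA-MB-361 (1.80) and near 0 in HCC1954 (0.00) and ZR-75-30 (-0.01). UCA1 had 0.76, 0.63, 0.41 and 0.38 in that order of lines, all positive and lower than the 1.85 in HCC1419. TCIM had 0.04, -0.13, 0.05 and -0.01, against 1.25. The background filter used the HCC1419 arrays only, so the CDH10 and TCIM probes may lie near background in lines where they are near 0. The GPER1 probe may likewise lie near background in HCC1954 and ZR-75-30, where its vehicle level was low. With lines as the units, the late difference of HCC1419 minus the mean of the other lines was called by limma for 0 probes of 23934 (0.0%), with 483 at an unadjusted p under 0.05 and a lowest adjusted p of 1.00. TCIM, UCA1 and CDH10 were picked for their values in HCC1419, so that large differences are partly built in. The difference was 1.26 for TCIM, 1.31 for UCA1 and 1.08 for CDH10. For the mean ratio over all time points it was likewise 0 (0.0%), with 552. With all 30 arrays and the time point as a block 1189 mean ratios were called, and with 1 factor per array 11713 late differences were. The fit of all 30 arrays counted the time points of a line as its replicates, so it did not measure the spread between lines. With 1 HCC1419 value against 4 the test had little power, and its 0 calls show neither a difference from the other lines nor the lack of one.

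**Figure D5:**
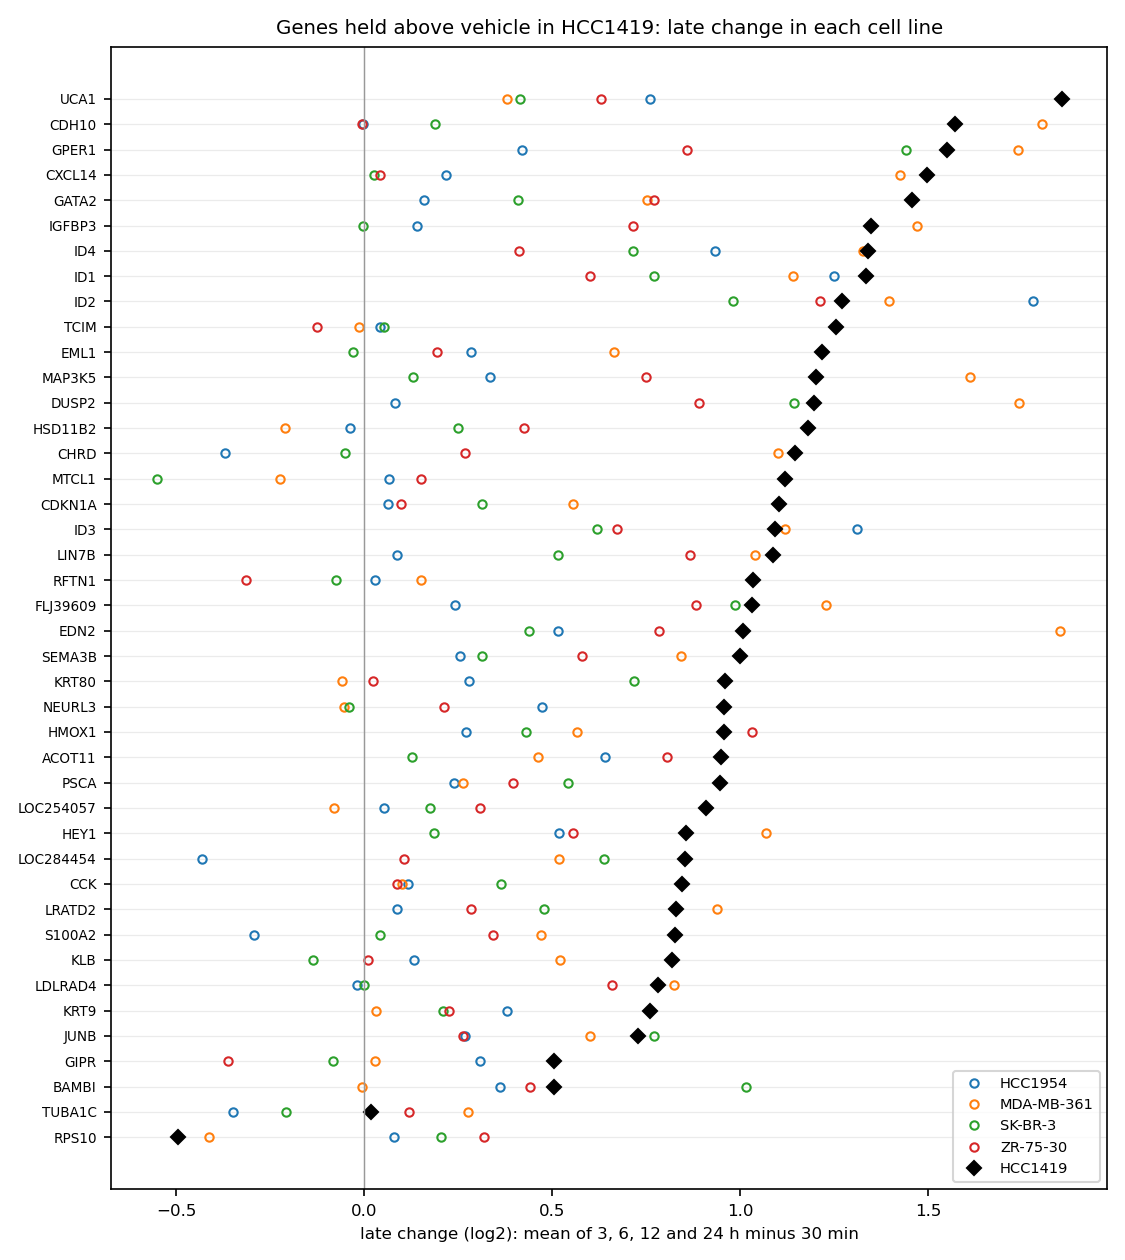
Late difference (x axis, log2, mean of 3, 6, 12 and 24 h minus 30 min) of 42 of the 43 genes held above vehicle in HCC1419 (y axis, brightest probe), 1 point per cell line and 1 array per time point, with no error bars. ID1 is at 0.60 or more in all 5 lines, while TCIM is at 1.25 in HCC1419 and between -0.13 and 0.05 in the other lines. Probes were filtered for background on the HCC1419 arrays only.

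The vehicle channel gave the starting level of these genes, compared for the same probe between lines as the mean ± SD of log2 intensity over 6 arrays. GPER1 was at 14.0 ± 0.25 in HCC1419, against 7.5 ± 0.15 in HCC1954, 8.1 ± 0.38 in ZR-75-30, 8.9 ± 0.43 in SK-BR-3 and 12.1 ± 0.21 in MDA-MB-361. Its levels in HCC1954 and ZR-75-30 may lie near background, since the filter used the HCC1419 arrays only. ID1 was at 15.4 ± 0.34 in HCC1419 and at 14.3 to 15.7 in the other lines. SMAD3 was at 8.8 ± 0.19, near SK-BR-3 at 8.9 ± 0.38 and below HCC1954 at 11.4 ± 0.32. BMPR1A was at 9.5 ± 0.19 and BMPR2 at 8.7 ± 0.31 in HCC1419, within the range of the other lines for both. ERBB2 was at 17.5 ± 0.10, above the other 4 lines, which ran from 15.9 to 17.2.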

How the data were processed

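The files were scanner output of two-colour Agilent arrays, extracted with Feature Extraction 9.5.1.1 on the hg18 design per the file headers. The authors deposited mean and background intensities per spot for both channels and a series matrix of log2 ratios with a median of 0 on each array, for which the methods name a linear normalization. Intensities were corrected with normexp (offset 50) and normalized by loess within each array in limma 3.58.1 (R 4.3.3), leaving out control spots and outlier flags and averaging spots of a probe. Ratios are Cy5 (BMP4) over Cy3 (vehicle), as the labels state the dyes. Kept probes were well above background in either channel on all 6 arrays. Late differences were tested with limma and Benjamini-Hochberg adjustment, and comparisons between lines took 1 value per line. The number of arrays limits the precision: with 1 pool per time point, p-values measure the spread between time points. The scripts were tested on simulated data.

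Probes were named through RefSeq tables, 23958 by accession, 2755 by symbol and 1032 by synonym of 41000, and 13255 kept the name in the file or none. Named were the ID genes, measured genes of the BMP and TGF-beta lists, the 10 largest late differences each way whose late values all lay on 1 side of 30 min, the 10 highest and 10 lowest held probes, and called probes, each gene by its brightest probe. A gene that this rule names is not reported here. Other genes are named as examples of a group and were chosen after their values were seen. The 33 lists, 5 of them markers, and the probes were chosen with earlier results of these data known. Alternatives were processed signals, 1 factor per array, the series matrix, an offset of 10, other filters, thresholds, bases and blocks, array weights and leaving out arrays or lines.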

Additional observations from a re-analysis of the deposited data

Results flagged for a closer look

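For 9 of the genes named above, all 6 HCC1419 arrays gave a ratio below vehicle and all 6 MDA-MB-361 arrays a ratio above it. The mean log2 ratio of HCC1419 minus that of MDA-MB-361 was -2.04 for MEX3D, -1.96 for CKB, -1.89 for ZNF467, -1.87 for CRTC1, -1.80 for C19orf73, -1.79 for SPPL2B, -1.79 for LOC145694, -1.78 for CACNA1I and -1.34 for KLK3. In HCC1419 itself the means were -1.10, -1.09, -1.10, -1.23, -1.16, -1.03, -0.85, -1.01 and -0.61 in the same order. The difference was not tested.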

How the results depend on the processing

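Of 308 values recomputed for 22 named late differences under 14 settings, 293 kept direction and side of the threshold, 7 passed it newly (CDH10, GATA2, ID1, ID3 and ID4) and 8 reversed. The reversed ones were, with 1 factor per array, NANOS1 (0.13), AHNAK (0.32), NIBAN1 (0.55), KLK3 (0.73), RPS2 (0.95), GCN1 (0.80) and SYBU (0.68), and, with a base of 30 min and 1 h, LOC728688 (0.034). The count of called late differences was 5 with the spread of all 30 arrays (GATA2, CDH10, TCIM, ID4, ID3). It was 2 with a base of 30 min and 1 h (MAP3K5, CDH10) and 2 with array weights (ID1, ID4), all upward like those 5. In the series matrix it was 2, both downward (CWF19L1 at -2.09 and CCL25 at -3.47). It was 0 under the other settings, including each late array left out (0 to 0). Unadjusted counts were 5061 with 1 factor per array, 1118 with that base, 1434 with slide as a block, 1112 without 3 h and 1124 without 24 h, against 733. Probes held above and below vehicle numbered 93 and 221 with processed signals, 82 and 244 in the series matrix, 255 and 578 at 1.5-fold, 6 and 9 at 3-fold, and 24 and 24 with 3 or more time points. Leaving out 1 array gave 28 (without 12 h) to 46 above and 27 (without 3 h) to 157 below vehicle. Against the other lines, 11713 late differences were called with 1 factor per array and 1189 mean ratios with all 30 arrays and time as a block, and 0 under the other settings, including each line left out (0 to 0). The cause was not tested, and the fit of all 30 arrays that gave 1189 counted the time points of a line as its replicates. Probes dim on the 30 min and 24 h arrays limit what can be read there: 51 probes held above vehicle only with processed signals had a median brightness of 8.08. No paired analysis was possible because within HCC1419 each time point is 1 array, and lines were matched only by the time point as a block.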
